A study of Mus musculus with 6 samples.

Results

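The genes described here are those of the proteasome and immunoproteasome, chosen by name: every gene whose symbol starts with Psm, a letter from a to g and a number, and which has a probe set annotated to that gene alone. There were 49 such genes among 18193 in the data, each represented by the probe set that was brightest on average. Of these, 47 are genes of the proteasome, its regulators and its assembly factors. The other 2, Psmc3ip, a factor of meiotic recombination, and Psme3ip1, a protein that binds the activator PSME3, match by symbol only.

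The 26S proteasome is the protease that degrades ubiquitin-tagged proteins. Its barrel, the 20S core, is built of rings of alpha subunits around rings of beta subunits, of which PSMB5, PSMB6 and PSMB7 carry the cutting sites. The 19S cap holds the ATPases that unfold a substrate (PSMC subunits) and the base and lid subunits that recognise it and remove its ubiquitin chain (PSMD subunits). In cells exposed to interferon, and constitutively in many leukocytes, PSMB8, PSMB9 and PSMB10 replace the constitutive catalytic subunits in newly built cores, giving the immunoproteasome, which favours peptides for MHC class I. In adipocytes the transcription factor NFE2L1 (NRF1) is known to maintain proteasome gene expression.

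The samples were epididymal white adipose tissue from 6 C57BL/6 mice at 8 weeks of age, with 1 Affymetrix array per mouse. In 3 mice (CNOT3KO) Cnot3, which encodes a subunit of the mRNA-deadenylating CCR4-NOT complex, was deleted by Cre recombinase driven from the promoter of adiponectin, an adipocyte hormone, so that Cnot3 RNA of other cells in the tissue is measured too. The other 3 mice were wild type (WT). The labels do not say whether the WT mice carried Cre or altered Cnot3 alleles. Values are MAS5 signals on a linear scale, as deposited, and differences are of log2(signal + 22.5), CNOT3KO minus WT. Median signals over all probe sets were 82.1 to 88.0 in CNOT3KO arrays and 91.9 to 92.9 in WT arrays. The titles name separate mice. The Cnot3 signal was 194, 229 and 179 in CNOT3KO mice, against 305, 293 and 305 in WT mice (log2 difference -0.54, SE 0.14, limma adjusted p = 0.0131). The adipocyte marker Adipoq was bright in all 6 mice, reading between 24292 and 32021 in CNOT3KO and between 21950 and 34975 in WT. Other adipocyte markers, some of them lower in CNOT3KO, are given below.

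Most proteasome genes were higher in the knockout fat, by modest amounts, and none was called lower with the brightest probe set of each gene. Of 47 members tested 28 were called higher (limma, p adjusted by Benjamini-Hochberg over the whole set of tested genes, threshold 0.05), where 23.2% of all 12769 tested genes were called higher and 16.9% lower. No member was called lower, and 0 had an unadjusted p under 0.05 in that direction. The log2 difference was above 0 in 46 of the 47 members, against 52.0% of all tested genes. Its median was 0.37 over the members and 0.02 over all tested genes. All 3 CNOT3KO arrays lay above all 3 WT arrays in 32 members, a pattern seen in 29.0% of tested genes. At an adjusted p of 0.01 there were 20 members higher, where the background was 14.8%.

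The members are bright genes, with a median signal of 3967 against 597 over all tested genes, and bright genes are measured more precisely (median SE of the log2 difference 0.11 for the members and 0.15 for all). Among the 35 members above the 75th percentile of signal (1564) 23 were called higher, against 25.1% of all tested genes in that range. After the median over tested genes was subtracted from every array (a shift of 0.10 between the groups), 21 members were called higher and 0 lower, where 18.2% of all tested genes were called higher, and the members' median difference was 0.27. The 7 calls lost by that scaling were those of Psma2 (0.19), Psma4 (0.32), Psma7 (0.21), Psmb6 (0.22), Psmc5 (0.27), Psmc6 (0.19) and Psmd2 (0.26). That scaling split all calls into 2318 higher and 2800 lower genes, against 2959 higher and 2156 lower on the deposited scale. Of the 2 genes not tested, Psma8, an alpha subunit of the testis, read 31, 8 and 45 in CNOT3KO and 5, 43 and 30 in WT. Psmb11, the catalytic subunit of the thymus, read 29, 27 and 34 in CNOT3KO and 27, 32 and 7 in WT. The WT mean alone was above the signal minimum of 51.6 in all 47 tested members, so none was tested only because it was high in CNOT3KO.

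**Figure D1:**
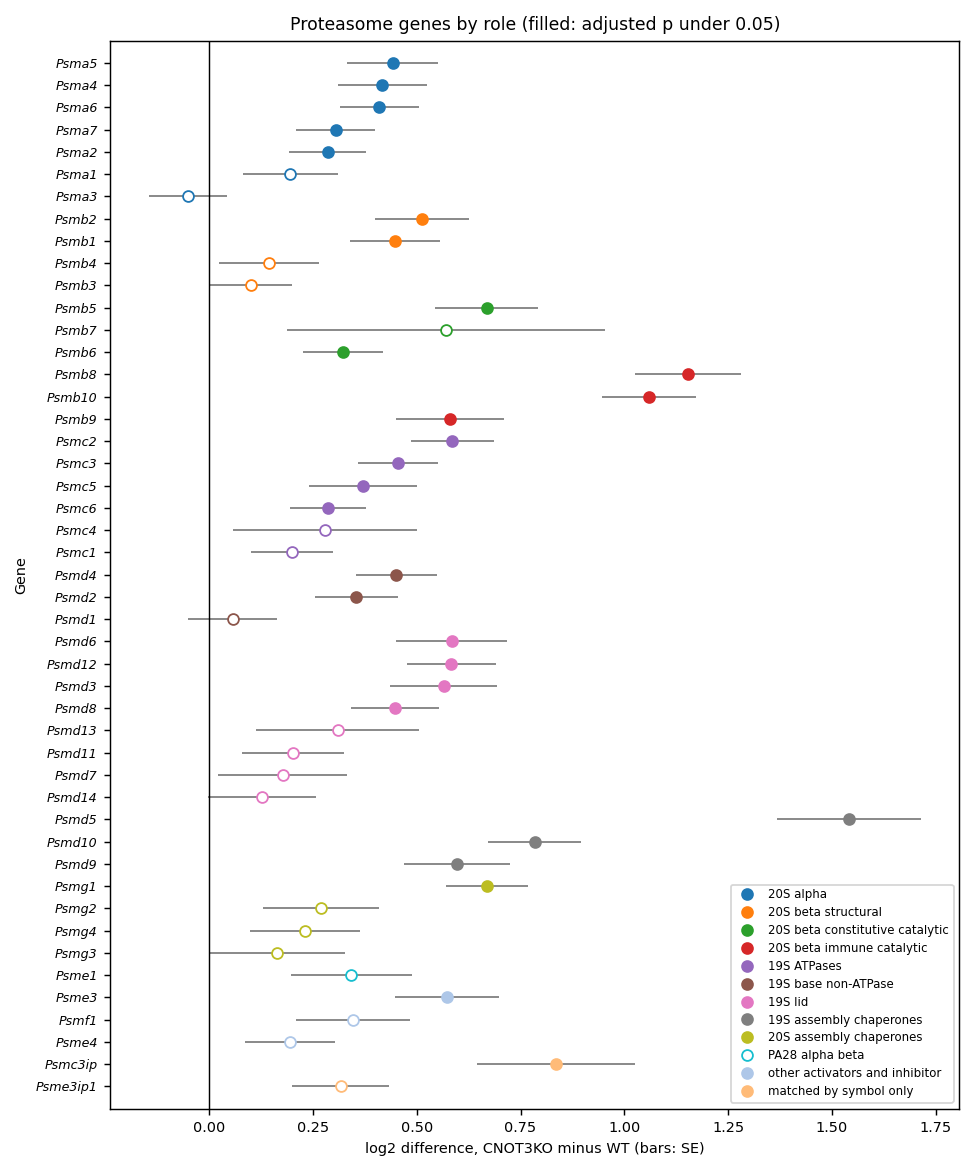
Log2 difference (CNOT3KO minus WT, x axis) of each of the 47 tested members (y axis), coloured by role, with bars for the SE. Filled points passed an adjusted p of 0.05. Psmd5 lies farthest to the right at 1.54, and Psma3, at -0.05, is the only point left of 0.

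Promoter windows of 4 members on which the account below turns are shown here first, with that of Psma3, which did not pass, beside them. They run from 250 bases before to 50 bases after the RefSeq start in the build GRCm38.p6 and are written 5′ to 3′ in lower case. Capitals mark matches, on either strand, to the antioxidant response element core TGANNNNGC, bound by NFE2L1 and NFE2L2, the CCAAT box, or the core GAAANNGAA, bound by interferon regulatory factors.
Psmb8 (chr17:34197945-34198244, plus strand): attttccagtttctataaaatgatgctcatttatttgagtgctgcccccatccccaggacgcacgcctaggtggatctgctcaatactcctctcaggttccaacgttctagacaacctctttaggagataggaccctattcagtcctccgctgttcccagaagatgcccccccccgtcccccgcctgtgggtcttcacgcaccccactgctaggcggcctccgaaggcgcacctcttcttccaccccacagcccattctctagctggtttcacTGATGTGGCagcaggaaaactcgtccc
Psmb9 (chr17:34187281-34187580, minus strand): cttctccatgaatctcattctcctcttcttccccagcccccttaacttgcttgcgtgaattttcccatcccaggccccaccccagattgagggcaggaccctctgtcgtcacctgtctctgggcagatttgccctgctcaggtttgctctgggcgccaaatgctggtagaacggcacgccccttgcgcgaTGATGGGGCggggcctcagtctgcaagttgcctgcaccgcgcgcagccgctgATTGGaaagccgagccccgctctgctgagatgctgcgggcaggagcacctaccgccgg
Psmb5 (chr14:54617946-54618245, minus strand): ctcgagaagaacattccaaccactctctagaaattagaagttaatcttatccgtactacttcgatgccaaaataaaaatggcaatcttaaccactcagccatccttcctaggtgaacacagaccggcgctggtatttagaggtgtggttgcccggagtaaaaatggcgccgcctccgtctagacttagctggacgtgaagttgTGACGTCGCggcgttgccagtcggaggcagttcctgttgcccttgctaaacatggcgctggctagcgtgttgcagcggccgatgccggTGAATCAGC
Psmd5 (chr2:34870913-34871212, minus strand): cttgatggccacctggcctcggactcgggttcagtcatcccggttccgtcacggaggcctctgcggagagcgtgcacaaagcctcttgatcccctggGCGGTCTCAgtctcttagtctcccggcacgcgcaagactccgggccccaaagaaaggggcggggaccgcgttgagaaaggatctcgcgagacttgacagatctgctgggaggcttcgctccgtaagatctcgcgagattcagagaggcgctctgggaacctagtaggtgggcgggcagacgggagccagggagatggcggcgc
Psma3 (chr12:70974373-70974672, plus strand): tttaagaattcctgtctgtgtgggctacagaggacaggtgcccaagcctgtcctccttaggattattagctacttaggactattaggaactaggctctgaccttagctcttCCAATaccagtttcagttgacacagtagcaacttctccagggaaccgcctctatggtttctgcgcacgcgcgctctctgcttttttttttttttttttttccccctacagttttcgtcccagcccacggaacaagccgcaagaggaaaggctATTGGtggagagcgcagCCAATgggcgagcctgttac

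All 3 immunoproteasome catalytic genes rose, where 23.2% of all tested genes were called higher. Psmb8 read 3541, 2843 and 3462 in CNOT3KO, against 1553, 1265 and 1571 in WT (log2 difference 1.15, SE 0.13, adjusted p = 0.000151). Psmb10, whose product has the trypsin-like site, read 3593, 3214 and 4070 in CNOT3KO and 1824, 1651 and 1691 in WT (1.06, SE 0.11, adjusted p = 0.000121). In both, the lowest knockout mouse was above the highest WT mouse by a wide margin. Psmb9 read 1805, 1444 and 1933 in CNOT3KO and 1236, 1073 and 1115 in WT, a smaller rise of 0.58 (SE 0.13, adjusted p = 0.0063) with groups that also did not overlap.

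Of the constitutive catalytic genes, Psmb5, the chymotrypsin-like subunit whose place PSMB8 takes, read 6000, 5451 and 7332 in CNOT3KO and 4174, 3883 and 3666 in WT (log2 difference 0.67, SE 0.12, adjusted p = 0.00244). Psmb6, whose place PSMB9 takes, read 6502, 6427 and 7201 in CNOT3KO and 5202, 5269 and 5606 in WT (0.32, SE 0.10, adjusted p = 0.024). The groups of both genes were apart, as were those of 29.0% of tested genes in that direction. Psmb6 lost its call without CNOT3KO mouse 1 (0.34) or 3 (0.27) or without WT mouse 1 (0.30) or 2 (0.31). Psmb7, whose place PSMB10 takes, read 1265, 957 and 3101 in CNOT3KO and 906, 811 and 1532 in WT. One mouse of each group stood well above the other 2, the groups overlapped, and the difference of 0.57 (SE 0.38, adjusted p = 0.269) did not pass.

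**Figure D2:**
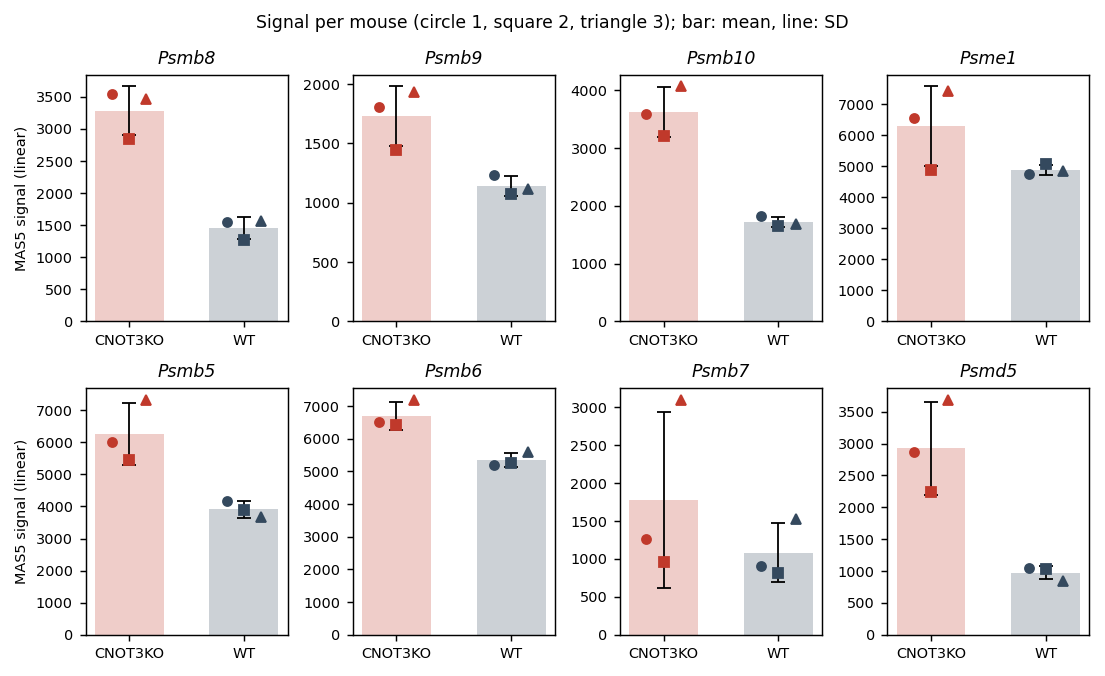
Signal (linear MAS5 units, y axis) of the catalytic genes, the activator gene Psme1 and the assembly factor gene Psmd5 in the 3 CNOT3KO and 3 WT mice, with bars for the mean and lines for the SD. Psmb8 and Psmb10 average 3282 and 3626 in CNOT3KO, against 1463 and 1722 in WT, while Psmb7 is set apart by 1 high mouse in each group.

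Within each array the log2 ratio of an immune subunit's signal to that of the constitutive subunit it replaces shows whether the pair changed unequally, not which mRNA was more abundant. The ratio of Psmb8 to Psmb5 was -0.76, -0.93 and -1.08 in CNOT3KO and -1.41, -1.60 and -1.21 in WT. It was higher in each knockout mouse than in any WT mouse, by 0.49 on average (exact two-sided permutation p = 0.1, the smallest that 3 against 3 mice can give, and 0.3 after adjustment over the 3 pairs). The ratio of Psmb9 to Psmb6 differed by 0.26 (exact permutation p = 0.2) and that of Psmb10 to Psmb7 by 0.49 (exact permutation p = 0.4), both with overlapping groups.

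Among the remaining subunits of the core, most also rose. Of 7 tested alpha subunits 5 rose, by 0.29 to 0.44, where 23.2% of all tested genes were called higher. Psma5 read 8296, 9652 and 9476 in CNOT3KO and 6427, 7445 and 6313 in WT (0.44, SE 0.11, adjusted p = 0.0104). Psma4 read 6509, 6763 and 7551 in CNOT3KO and 4737, 5282 and 5562 in WT (0.42, adjusted p = 0.0117). Psma6, the brightest member, read 13720, 14346 and 15431 in CNOT3KO and 10906, 10620 and 11172 in WT (0.41, adjusted p = 0.00742), with narrow spreads in both groups. Psma7 had a smaller difference of 0.30, at 5405, 5091 and 5207 in CNOT3KO and 4512, 4191 and 4013 in WT, and Psma2 one of 0.29. Psma7 lost its call without CNOT3KO mouse 1 (0.28) or WT mouse 2 (0.30) or 3 (0.27), and Psma2 without any 1 of the 6 mice (0.24 to 0.32). Psma3 read 8636, 9018 and 9075 in CNOT3KO and 8653, 9384 and 9690 in WT, a difference of -0.05 with a 95% interval from -0.26 to 0.16, and Psma1 differed by 0.20 with overlapping groups.

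Of the 4 beta subunits without a catalytic site, Psmb2 read 6227, 5599 and 7223 in CNOT3KO and 4257, 4459 and 4549 in WT (0.51, SE 0.11, adjusted p = 0.0058). Psmb1 read 6437, 5683 and 7105 in CNOT3KO and 4922, 4510 and 4608 in WT (0.45, adjusted p = 0.00962). Both rose with groups apart, where 23.2% of all tested genes were called higher. Psmb4 (0.14) and Psmb3 (0.10) did not pass, and their groups overlapped.

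In the 19S cap, 10 of 17 structural subunits matching the symbol rule rose, where 23.2% of all tested genes were called higher. Of the 6 ATPases, which form the unfolding ring, 4 were higher. Psmc2 read 10503, 11128 and 10482 in CNOT3KO and 7630, 7279 and 6503 in WT (0.59, SE 0.10, adjusted p = 0.00148). A second bright probe set of Psmc2 read 0.25, with overlapping groups. Psmc3 read 4256, 4832 and 4692 in CNOT3KO and 3234, 3326 and 3466 in WT (0.45, adjusted p = 0.00494). These 2 had the lowest adjusted p among the 6 ATPase genes. Psmc5 read 3138, 2806 and 3975 in CNOT3KO and 2590, 2547 and 2443 in WT (0.37, adjusted p = 0.0476), and its call was lost without any 1 of the mice but CNOT3KO mouse 2 (0.23 to 0.40) and in the fit with mouse number as a replicate block (0.37). Psmc6 read 4213, 4042 and 4420 in CNOT3KO and 3541, 3389 and 3447 in WT (0.29, adjusted p = 0.0327), a call lost without CNOT3KO mouse 1 (0.29) or 3 (0.25) or WT mouse 2 (0.27) or 3 (0.28). The direction of Psmc6 turned with the mean of its probe sets (-0.24). It also turned when probe sets whose names end in _s_at, _x_at or _a_at were avoided (-0.61). A second bright probe set of the gene read -0.40. Psmc4 varied most within its groups, from 2990 to 5587 in CNOT3KO and from 2807 to 4166 in WT, and did not pass (0.28), although it did without CNOT3KO mouse 2 (0.53). Psmc1 differed by 0.20 and did not pass.

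Of the base subunits without ATPase activity, the ubiquitin receptor gene Psmd4 read 6214, 5951 and 6159 in CNOT3KO and 4219, 4314 and 4882 in WT (0.45, SE 0.10, adjusted p = 0.00545). Psmd2, a scaffold, read 6054, 5697 and 6793 in CNOT3KO and 4741, 4937 and 4775 in WT (0.35, adjusted p = 0.0191), a call lost without CNOT3KO mouse 1 (0.37) or 3 (0.28) or WT mouse 2 (0.37). Psmd1, the other scaffold, differed by 0.06 (95% interval from -0.19 to 0.30) with overlapping groups.

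The lid holds the deubiquitinase PSMD14. Its 8 genes that match the symbol rule were split evenly between those that passed and those that did not. Over all tested genes 23.2% were called higher. Psmd6 read 6852, 7170 and 6846 in CNOT3KO and 5524, 4732 and 3801 in WT (0.58, SE 0.13, adjusted p = 0.00723). Psmd12 read 4482, 4217 and 5231 in CNOT3KO and 3082, 3021 and 3136 in WT (0.58, adjusted p = 0.00222). Psmd3 read 2194, 1917 and 2126 in CNOT3KO and 1635, 1387 and 1198 in WT (0.57, adjusted p = 0.00705). All 3 had groups apart, as had Psmd8, at 5627, 5301 and 6328 in CNOT3KO and 3990, 4120 and 4508 in WT (0.45, adjusted p = 0.00822). Psmd13, Psmd11, Psmd7 and Psmd14 differed by 0.13 to 0.31, had overlapping groups and did not pass. For Psmd14 itself the 95% interval of the difference ran from -0.17 to 0.42.

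The gene with the largest difference of all tested members, Psmd5, encodes no part of the finished particle. The 3 members that encode 19S assembly chaperones, which hold parts of the cap during its assembly and then leave, all rose. Over all tested genes 23.2% were called higher. Psmd5, the chaperone that holds PSMC1 and PSMC2, read 2864, 2233 and 3691 in CNOT3KO, against 1043, 1032 and 851 in WT (1.54, SE 0.17, adjusted p = 0.000159), or 2.91-fold. Psmd10 (gankyrin) read 1135, 1173 and 1340 in CNOT3KO and 695, 733 and 659 in WT (0.78, SE 0.11, adjusted p = 0.000575). Psmd9 read 871, 924 and 946 in CNOT3KO and 516, 689 and 597 in WT (0.60, SE 0.13, adjusted p = 0.0051). None of these groups overlapped, where all CNOT3KO arrays lay above all WT arrays in 29.0% of tested genes. Of the 4 members that encode chaperones of the 20S core, Psmg1 rose, at 2654, 2786 and 2849 in CNOT3KO and 1819, 1613 and 1762 in WT (0.67, SE 0.10, adjusted p = 0.000677). Psmg2, whose product pairs with that of Psmg1, differed by 0.27 and did not pass. Psmg3 (0.16) and Psmg4 (0.23), which form the other chaperone pair, did not pass either, though Psmg4 did without WT mouse 3 (0.36).

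Among genes for particles that bind the ends of the core, Psme3 (PA28 gamma, a nuclear activator) read 776, 821 and 980 in CNOT3KO and 554, 540 and 610 in WT (0.57, SE 0.12, adjusted p = 0.00549). Psme1 (PA28 alpha), an interferon-induced activator, read 6569, 4890 and 7419 in CNOT3KO and 4756, 5063 and 4849 in WT. Its groups overlapped through CNOT3KO mouse 2, and the difference of 0.34 (SE 0.15, adjusted p = 0.0894) passed only when that mouse was left out (0.51) or arrays were weighted (0.37). Psmf1 (PI31), first described as an inhibitor of the core, read 678, 613 and 817 in CNOT3KO and 539, 601 and 497 in WT, groups apart by a small margin (0.35, adjusted p = 0.0716), and passed without CNOT3KO mouse 2 (0.44). Psme4 (PA200) read 3842, 3638 and 4487 in CNOT3KO and 3508, 3311 and 3591 in WT (0.19, adjusted p = 0.182). Psme2, the partner of Psme1, had no probe set of its own name alone. Of the genes matched by symbol only, Psmc3ip read 205, 160 and 250 in CNOT3KO and 116, 99 and 96 in WT (0.83, adjusted p = 0.00684). Psme3ip1 differed by 0.32 (adjusted p = 0.0551) and passed without CNOT3KO mouse 2 (0.39).

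**Figure D3:**
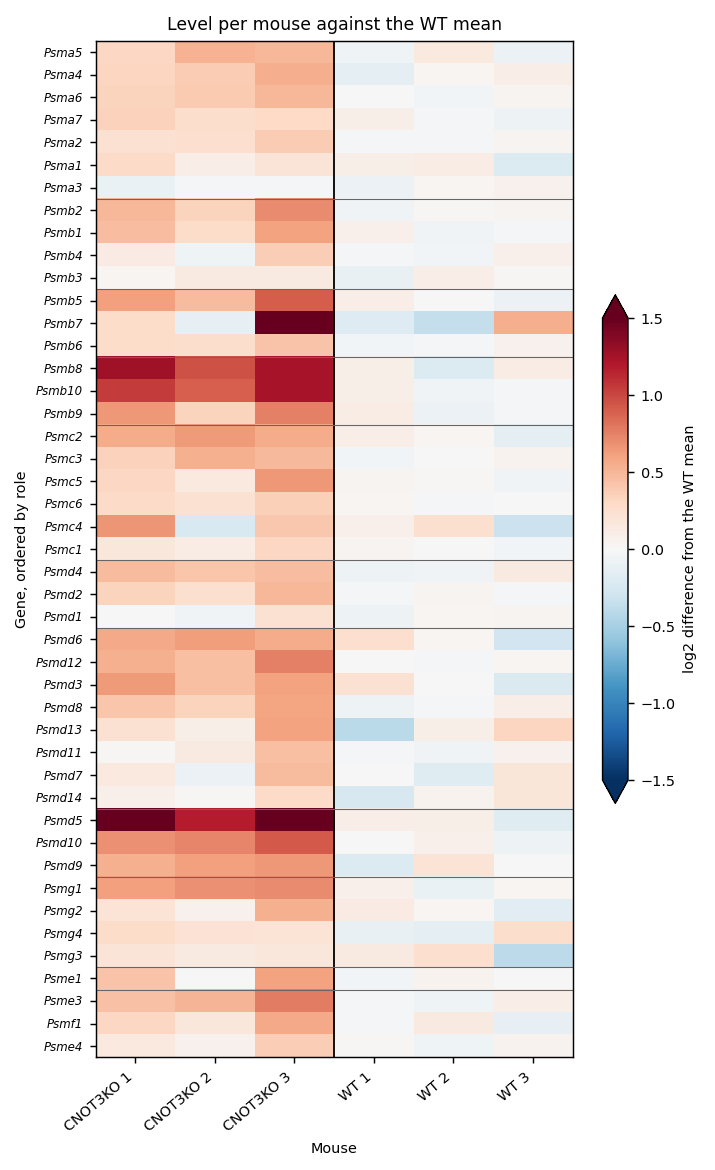
Level of each of 45 tested proteasome genes (rows, ordered by role) in each mouse (columns), as the log2 difference from the gene's WT mean, with colours ending at 1.5 in either direction. CNOT3KO mouse 3 is the most strongly coloured column, with a median of 0.53, against 0.33 and 0.26 in mice 1 and 2.

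The 3 knockout mice were not alike. Over the 45 tested proteasome genes the median log2 difference from the WT mean was 0.33, 0.26 and 0.53 in CNOT3KO mice 1, 2 and 3, and -0.00068, -0.0063 and 0.015 in the WT mice. CNOT3KO mouse 3 was the highest knockout mouse for 33 of the 45 genes, where it was the highest for 36.0% of all tested genes. CNOT3KO mouse 2 was the highest for 4 of the 45, where it was the highest for 36.8% of all tested genes. The 22 to 31 members called higher when each mouse was left out in turn bracket the 28 with all mice, and 23 were called without CNOT3KO mouse 3. Of the 28 called members 14 kept both call and direction under all the alternatives tried at an adjusted p of 0.05, Psmb8, Psmb9, Psmb10, Psmb5, Psmd5, Psmd10 and Psmg1 among them.

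Whole tissue was measured, so that a different number of cells of a type and a different amount of RNA per cell cannot be told apart. Most macrophage markers were also higher in CNOT3KO than in WT. Of 10 tested 9 rose (median log2 difference 1.07), where 23.2% of all tested genes were called higher. No macrophage marker was at 0 in any mouse, and their summed signal was 45448 to 70636 in CNOT3KO and 24080 to 28862 in WT. Of the 3 knockout mice, mouse 3 had the lowest summed macrophage signal (45448, against 63201 and 70636) and the lowest value for 9 of the 10 markers. It also had the highest summed adipocyte signal (126076, against 105091 and 107779) and the highest median proteasome level. Psmb8 was highest in CNOT3KO mouse 1 (3541, against 2843 and 3462 in mice 2 and 3). Summed lymphocyte and NK cell markers read 2604 to 4169 in CNOT3KO and 1879 to 2538 in WT, of which Ptprc, which all leukocytes express, made up most. Of the 5 tested genes in that list Ptprc rose (1.03) and the B cell marker Ms4a1 fell (-1.49, adjusted p = 0.0166), while Cd3g (0.15), Cd8a (-0.25) and Nkg7 (0.05) did not pass. Cd3e, Cd4, Gzmb and Cd79a were too dim to be tested. All 7 endothelial markers fell (summed signal 2282 to 2946 in CNOT3KO and 6463 to 7429 in WT). Of 8 adipocyte markers 3 fell, Lep (-1.25), Cidec (-0.79) and Plin4 (-0.51), and 5 did not pass. The summed signal of the 8 was 105091 to 126076 in CNOT3KO and 124364 to 156514 in WT. Over all tested genes 16.9% were called lower. The part of cell composition in the proteasome differences was not tested.

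Genes for the transcription factors known to drive proteasome genes fell. Nfe2l1 read 3758, 3775 and 3663 in CNOT3KO, against 4610, 4680 and 4625 in WT (log2 difference -0.31, SE 0.09, adjusted p = 0.019), with very narrow groups. Nfe2l2, the related factor of the oxidative stress response, read 2299, 2576 and 2057 in CNOT3KO and 2847, 3102 and 3266 in WT (-0.41, adjusted p = 0.0172). Of their small Maf partners Mafk (-0.53, adjusted p = 0.00922) and Mafg (-0.43, adjusted p = 0.0208) fell and Maff rose (0.93, adjusted p = 0.0255) with overlapping groups. Of the 7 tested genes in this list 4 fell and 1 rose, where 16.9% of all tested genes were called lower. Ngly1, which removes glycans from NFE2L1 before it is cleaved, differed by 0.08 and did not pass. Calls in this list were lost without CNOT3KO mouse 1 (Nfe2l1 -0.32, Nfe2l2 -0.41, Mafg -0.42), CNOT3KO mouse 2 (Mafg -0.35) or 3 (Maff 0.78), WT mouse 1 (Maff 0.67), WT mouse 2 (Nfe2l1 -0.31, Nfe2l2 -0.40, Maff 0.83) or WT mouse 3 (Nfe2l2 -0.37, Mafg -0.36). These are mRNA levels, and NFE2L1 is known to be controlled largely after translation.

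Proteasome partners whose symbols lie outside the rule held 3 genes called higher and none lower among 10 tested, near the 23.2% called higher among all tested genes. Txnl1, a thioredoxin that sits on the 19S cap, read 11037, 12240 and 10864 in CNOT3KO and 6180, 5957 and 5473 in WT (0.95, SE 0.10, adjusted p = 0.000113). Over 18 alternatives the call of Txnl1 was lost in 1, and its lowest difference was 0.33. Ecpas, a proteasome adaptor known as ECM29, rose by 0.54 (adjusted p = 0.0201) and Akirin2, the import factor of proteasomes into the nucleus, by 0.37 (adjusted p = 0.0157). Ecpas lost its call without CNOT3KO mouse 3 (0.40) or WT mouse 2 (0.44), and Akirin2 without CNOT3KO mouse 1 (0.32) or WT mouse 2 (0.37). Pomp, the chaperone that finishes the 20S core, read 5019, 4771 and 5805 in CNOT3KO and 5631, 4968 and 5286 in WT (-0.03, 95% interval from -0.27 to 0.21).

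Among ubiquitin and shuttle factors 5 of 11 tested rose, against 23.2% of all tested genes, and none fell. Ubd (FAT10), a ubiquitin-like protein that sends its targets to the proteasome, read 3194, 3315 and 3410 in CNOT3KO, against 223, 95 and 155 in WT (4.27, SE 0.22, adjusted p = 4.89e-06). Uba6, the enzyme that activates FAT10 as well as ubiquitin, read 1162, 1192 and 1155 in CNOT3KO and 620, 754 and 778 in WT (0.69, adjusted p = 0.00142). The groups of both genes were far from touching. Sqstm1 (p62) rose by 0.49 (adjusted p = 0.0104), Ubqln4 by 0.42 (adjusted p = 0.0187) and Nbr1 by 0.37 (adjusted p = 0.0213). These calls were lost without CNOT3KO mouse 1 (Ubqln4 0.44), 2 (Nbr1 0.36) or 3 (Ubqln4 0.38, Nbr1 0.32), or without WT mouse 2 (Sqstm1 0.40) or 3 (Ubqln4 0.33, Nbr1 0.30).

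The immunoproteasome supplies peptides for antigen presentation, and 3 of 11 tested genes of that pathway were called higher and none lower, near the 23.2% called higher among all tested genes. Tap1, the peptide transporter subunit, read 981, 736 and 861 in CNOT3KO and 431, 512 and 527 in WT (0.78, SE 0.14, adjusted p = 0.00195). Over 18 alternatives the call of Tap1 was lost in 1, and its lowest difference was 0.06. In the mouse genome Psmb9, Tap1, Psmb8 and Tap2 are consecutive genes on chromosome 17. Erap1, which trims peptides, rose by 0.59 (adjusted p = 0.0068), a call also lost in 1 alternative (lowest difference 0.05). The chaperone gene Calr rose by 0.32 (adjusted p = 0.0316). The call of Calr was lost without any 1 of the mice except WT mouse 3 (0.27 to 0.36). The other 8 of 11 tested genes did not pass, among them Irf1, an inducer of the immunoproteasome (0.26, adjusted p = 0.272), and B2m, the light chain of MHC class I (-0.27, adjusted p = 0.0868), which passed as lower without WT mouse 3 (-0.36), with arrays centred on the median (-0.37) and with array weights (-0.28).

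**Figure D4:**
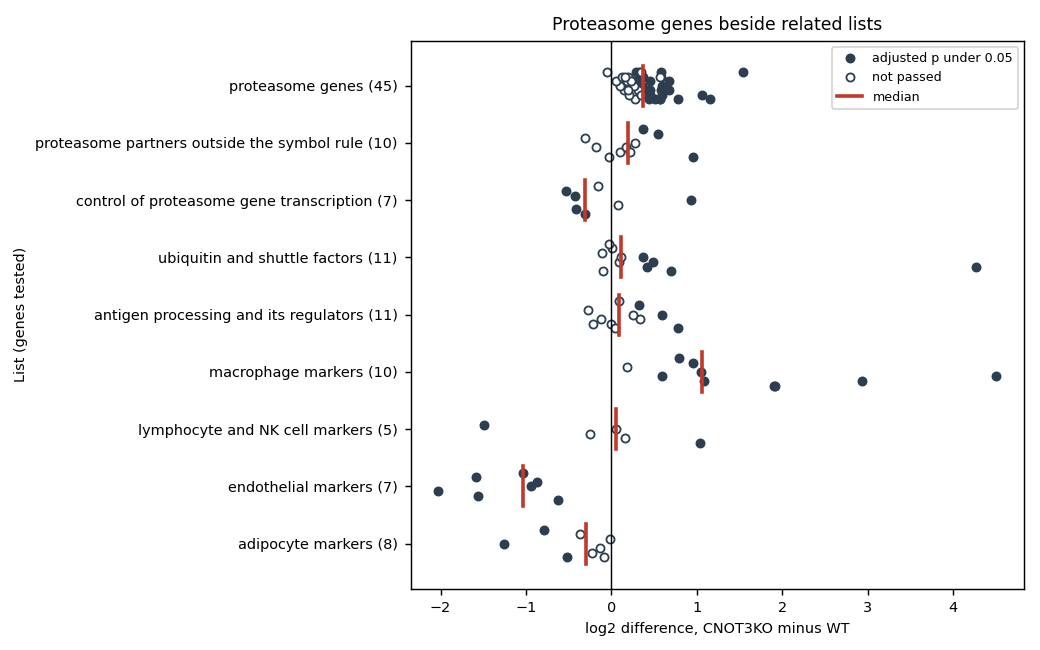
Log2 difference (CNOT3KO minus WT, x axis) of tested genes in each list (y axis), filled where the adjusted p was under 0.05, with a red line at the median. The proteasome genes gather between 0 and 1 around a median of 0.37, while the median of the transcription control list is -0.31.

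The promoter windows were searched for the motifs named above in 39 of 47 proteasome genes that had a window. A match to TGANNNNGC was present in 22 of them (56.4%), in 15 of 23 genes called higher and in 6 of 15 that did not pass, against 45.0% of 27025 genes in the table. Psmb8, Psmb9, Psmb5 and Psmd5, printed above, each hold at least 1 such match, and Psma3 holds none. Other members ran the other way. Psmb10 and Psmd10, called higher, hold no match, and Psmb3 and Psmd1, which did not pass, hold a match. The CCAAT box was found in 14 (35.9%, against 41.1% of all). The interferon regulatory factor core was found in 7 (17.9%, against 9.76%), in 3 of 23 genes called higher and in 4 of 15 that did not pass. The windows of Psmb8, Psmb9 and Psmb10 held no match to it. These are matches of letters in a short window and say nothing of binding.

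Several members were measured by more than 1 probe set. The further probe sets at a signal of at least 500, a boundary set after the values were seen, mostly had the sign of the rise. Of these 15 of 18 were above 0, against 47.6% of such probe sets over all tested genes. In 9 the CNOT3KO arrays all lay above the WT arrays, against 24.4% of such probe sets over all tested genes. Psma6, for which the brightest probe set gave 0.41, read 0.43 on the next, and Psmd6 read 0.58 and 0.60. Psmc2 read 0.59 on its brightest probe set and 0.25 on the next, where the groups overlapped. Of the 3 below 0, that of Psmc6 (-0.40) had all CNOT3KO arrays below all WT arrays, against 29.5% of such probe sets over all tested genes.

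Of 21 further probe sets under that boundary 8 were above 0 (38.1%, against 41.9% over all tested genes). None had all CNOT3KO arrays above all WT arrays, against 16.6% over all tested genes. In 9 all CNOT3KO arrays lay below all WT arrays, against 25.2% over all tested genes. Psma1 had 3 of these, at -0.72, -0.87 and -1.28, beside 0.20 on its bright probe set. The 2 dim probe sets of Psma6 read -0.53 and -0.75, and that of Psma3 -0.78. Where in the transcripts these probe sets lie was not analysed here. Averaging all probe sets of a gene, dim ones included, left 18 members called higher and 2, Psma1 (-0.67) and Psma3 (-0.42), called lower.

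**Figure D5:**
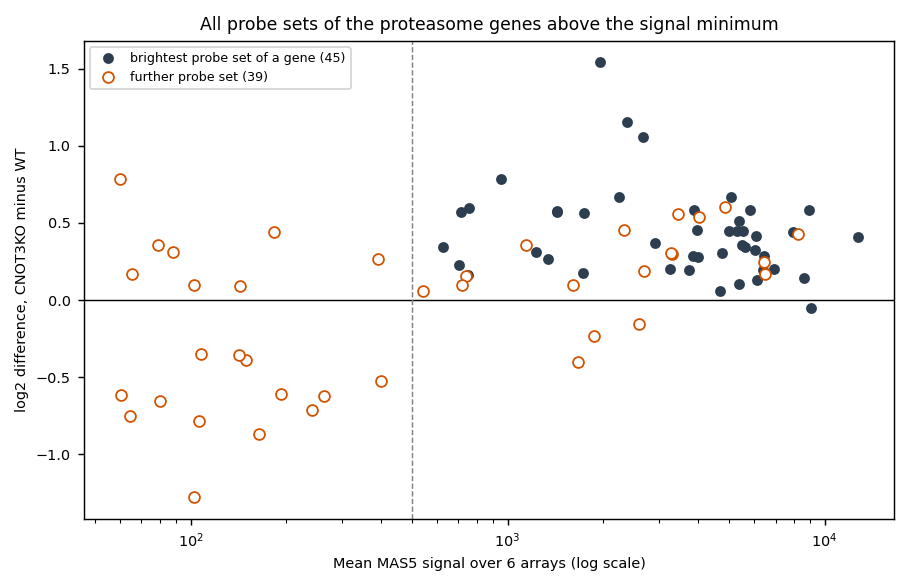
Log2 difference (CNOT3KO minus WT, y axis) against mean signal (x axis, log scale) for the probe sets of tested proteasome genes above the signal minimum, the dashed line marking a signal of 500. The brightest probe set of each gene (45, filled) lies above 0 in all but 1 case, and most of the 21 further probe sets (open) left of the line lie below 0.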

How the data were processed

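Total RNA (500 ng) from each of 6 mice was labelled with biotin for Affymetrix arrays, as the labels' protocols state. The authors deposited signal intensities on a linear scale, which the submitters' processing notes trace to MAS5. The sources used here give no version, setting or scaling target for it. The platform annotation gave 1 gene name to 34945 of 45037 probe sets, several to 932, and 9160 had none here. The brightest probe set with 1 name stood for each gene, and genes whose mean signal was below 51.6 (the 40th percentile) stayed out of the tests. Groups and mouse numbers came from the titles.

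An offset of 22.5, the 25th percentile of the data, was added before log2. All 12769 remaining genes were tested with limma 3.58.1 in R 4.3.3 (eBayes with a trend, two-sided, Benjamini-Hochberg adjustment). Fold values are on that scale. With 3 arrays a group and 4 residual degrees of freedom, the number of arrays limits the precision. The test was checked on simulated data. Named by sample are the catalytic subunits, the activators and Psmf1, and in each other role the called members, up to 4 with the largest change (the brightest where none was called). Of related lists, the called members with the largest changes are named, up to 4 in each direction, with Pomp, Nfe2l1, Nfe2l2 and Irf1; another gene of that rule is not reported here. B2m, Ngly1, Nbr1 and the other members given by value were added after their values were seen. The members, lists, motifs and alternatives were chosen with earlier results of these data known. Promoter sequences are from RefSeq. Plots used Python 3.11.15 and matplotlib 3.10.9.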

Additional observations from a re-analysis of the deposited data

How the results depend on the processing

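The count of members called higher lay between 18 and 31 over 18 alternatives, against 28, and was within 1.5 times of it in all but 1. The exception was the mean of all probe sets, with 18 higher and 2 lower. Avoiding probe sets whose names end in _s_at, _x_at or _a_at gave 26 higher and 2 lower, Psmd13 (-0.65) and Psma3 (-0.78). Both were then read from dim probe sets, with mean signals of 79.9 and 106, against 1229 and 9076 on their brightest. The other alternatives called 0 members lower. Values whose sign turned were, with the mean of all probe sets, Psma1 (-0.67), Psma6 (-0.11), Psmc6 (-0.24), Psmd7 (-0.09), Psme4 (-0.17), Psmg3 (-0.34), Psmg4 (-0.11) and Akirin2 (-0.03). Avoiding probe sets with those name endings turned Psmc6 (-0.61), Psmd11 (-0.15) and Psmd13. These alternatives give dim probe sets weight or replace the brightest one. Psmd1 turned with centring (-0.04), with array weights (-0.01) and when mice were left out in turn (-0.03 to 0.11). Leaving out mice also turned Psmg3 (-0.03 to 0.29) and Pomp (-0.11 to 0.03), none of which passed in any of these fits. The cause was not tested. Calls were also lost in 2 alternatives for Psma5 (lowest difference 0.18), Psmb1 (0.09) and Psmc2 (0.24). In 1 alternative they were lost for Psmd4 (lowest difference 0.12), Psmd9 (0.1) and Psme3 (0.38). The within-array ratios kept their direction. With mouse number as a replicate block 28 members were called higher, Psmc5 being lost and Psmb7 gained (0.57). Same-numbered mice correlated in their deviations by 0.07, 0.11 and 0.04, each best with its own number, which is a hint from the data and not the design. With 3 mice a group and modest differences, members that did not pass are not shown to be unchanged.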

Other observations

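A probe set annotated to both Psme2 and the retrocopy gene Psme2b was left out of the comparison because it names several genes. Psme2 encodes PA28 beta, the partner of PA28 alpha. It read 4932, 4568 and 5700 in CNOT3KO and 4433, 4797 and 4816 in WT, with overlapping groups and a log2 difference of 0.11.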
